A study of Homo sapiens with 4 samples.

Results

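Among the new MBD-seq peaks of cells that carried the wild type editor, 397 regions spanned 1500 bp or more, and these wide peaks are described here. They were chosen by their width alone, the end minus the start given in the list, on chromosomes 1 to 22. The list held 12864 peaks in all, 12667 of them on chromosomes 1 to 22, and the wide peaks made up 3.13% of that number and 9.44% of the 7731 kb it covered. The remaining 12270 peaks are called narrower below.

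In MBD-seq, fragments of genomic DNA that hold many methylated CpGs are captured by MBD2, a methyl-CpG binding protein (here as GST-MBD2), and sequenced. The material was HEK293, a human embryonic kidney cell line, and the study had 4 libraries, 1 per condition. The library analysed here came from cells transiently transfected with dCas9 carrying a SunTag peptide array (dCS), Ab-3A3L, and an sgRNA against the CpG island at the ISG15 promoter. Ab-3A3L is an antibody fragment that binds the SunTag, fused to the C-terminal parts of DNMT3A and DNMT3L, and WT denotes an unmutated DNMT3A part. Cells with all components were sorted 3 days after transfection, and untreated HEK293 cells, which received none of them, served as the comparison for the peaks. The libraries of the untreated cells and of the DNMT3A mutants were not analysed here. A transient transfection leaves each cell with its own dose of the plasmids, and the library averages over them.

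CpG islands are stretches of DNA in which CpG dinucleotides have been retained at a high density, whereas most of the genome has lost them. They sit at many promoters, where they are usually free of methylation in cultured cells, and housekeeping as well as developmental genes use them. DNMT3A sets methyl groups on CpGs in both strands and works as an assembly with DNMT3L, which has no catalytic activity of its own.

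The sequences at the highest point of a peak, its summit, show what kind of DNA carried the signal. Windows of 150 bp centred on the summit are given for the widest members, those with the highest fold and those with the most CpGs, leaving out windows that touch an untranslated region of any annotated transcript. For that reason the peaks at UBTF, ACTG1 and TRIM8 and near WNT11, which held 303 to 365 CpGs, are not shown. All are from the plus strand of GRCh37 (the build of hg19), written 5′ to 3′, and capitals mark each CpG.

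The widest peak, which spanned the start of ANP32A on chromosome 15, and the third in width, at HES4 on chromosome 1, are shown by the windows chr15:69110061-69110210 and chr1:933474-933623. The first lay in an intron of ANP32A and held 17 CpGs, and the other lay beyond the 3′ end of HES4, 1928 bp from its start, and held 20.
ANP32A: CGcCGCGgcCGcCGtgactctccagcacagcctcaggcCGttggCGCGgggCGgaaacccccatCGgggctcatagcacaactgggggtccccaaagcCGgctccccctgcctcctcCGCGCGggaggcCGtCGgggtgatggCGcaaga
HES4: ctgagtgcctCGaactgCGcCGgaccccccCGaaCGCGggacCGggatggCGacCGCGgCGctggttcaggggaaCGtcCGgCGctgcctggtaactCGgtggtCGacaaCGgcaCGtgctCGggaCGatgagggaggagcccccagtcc

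The wide peaks with the highest fold whose summits could be shown were those of FJX1, with a window in coding exon 1 at chr11:35640915-35641064, and NRP1, with a window upstream of the gene at chr10:33624210-33624359. These windows held 13 and 14 CpGs.
FJX1: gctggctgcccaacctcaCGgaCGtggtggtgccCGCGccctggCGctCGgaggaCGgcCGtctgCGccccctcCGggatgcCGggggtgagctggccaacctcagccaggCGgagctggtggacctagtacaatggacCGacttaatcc
NRP1: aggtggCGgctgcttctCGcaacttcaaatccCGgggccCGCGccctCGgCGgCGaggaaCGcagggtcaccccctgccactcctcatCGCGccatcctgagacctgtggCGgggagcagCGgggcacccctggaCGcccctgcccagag

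The wide peaks at MIR124-3 and NPTX1, of which more is said below, held 296 and 290 CpGs, the most among the remaining peaks whose windows could be shown, and had a high background. Their windows were chr20:61808517-61808666, in an intron of a non-coding gene, and chr17:78451961-78452110, between transcripts upstream of NPTX1, with 15 and 23 CpGs.
MIR124-3: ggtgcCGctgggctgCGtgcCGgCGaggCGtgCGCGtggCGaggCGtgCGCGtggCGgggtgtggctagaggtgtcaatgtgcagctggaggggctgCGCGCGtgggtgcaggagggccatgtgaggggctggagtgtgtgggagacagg
NPTX1: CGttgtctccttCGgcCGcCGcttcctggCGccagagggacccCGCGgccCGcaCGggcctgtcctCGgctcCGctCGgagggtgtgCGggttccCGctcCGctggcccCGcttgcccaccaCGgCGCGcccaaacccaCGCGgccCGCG

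For comparison, the narrower peaks with the highest fold in the list had a window in coding sequence of TARS3 at chr15:102264371-102264520, with 17 CpGs, and one in an exon of the pseudogene PDE4DIPP2 at chr1:145075679-145075828, with 21.
TARS3: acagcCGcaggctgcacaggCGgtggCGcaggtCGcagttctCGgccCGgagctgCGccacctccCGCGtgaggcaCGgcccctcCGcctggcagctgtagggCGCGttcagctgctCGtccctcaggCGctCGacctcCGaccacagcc
PDE4DIPP2: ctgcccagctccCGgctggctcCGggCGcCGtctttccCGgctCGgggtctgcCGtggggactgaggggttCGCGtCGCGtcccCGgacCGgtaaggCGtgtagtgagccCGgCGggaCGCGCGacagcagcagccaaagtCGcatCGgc

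The width of a peak comes from the same comparison of the wild type library with its background as the fold, the number of fragments and the q-value, so these are given as a description of the selected regions. The median width was 1726 bp, with quartiles of 1586 and 1981 bp, and the widest peak spanned 4327 bp. Of the 397 regions, 307 were narrower than 2000 bp, 85 measured from 2000 bp to under 3000 bp and 5 were wider still. The median fold enrichment at the summit was 12.4 (quartiles 9.93 and 14.7), against 11.2 in peaks from 1000 to under 1500 bp and 7.45 in all narrower peaks. In terms of counts this corresponded to a median of 23 fragments at the summit (quartiles 19 and 27), against 21 and 17. The median background was 0.694, 0.702 and 0.966 fragments in these groups. A fold of 10 or more was listed for 290 of the wide peaks, 73.0%, and a fold under 5 for 24, 6.05%. These shares were 60.4% and 8.30% in peaks from 1000 to under 1500 bp, and 25.5% and 20.2% in the whole list. With 1 library there is no spread between replicates, and the intervals given for shares are 95% exact binomial intervals that cover counting error only.

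**Figure D1:**
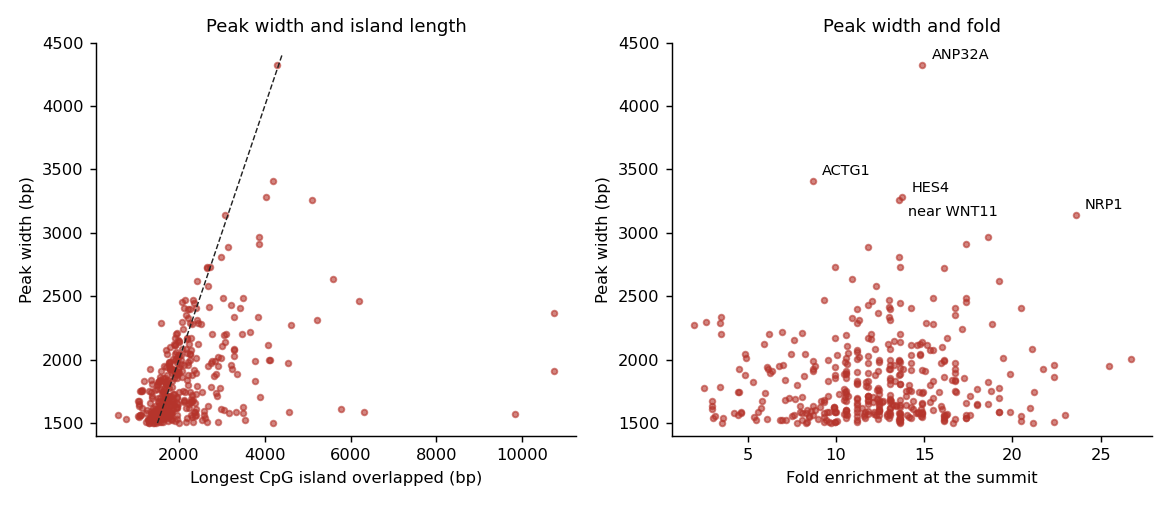
Each point is 1 wide peak, with its width in bp on the vertical axes, against the length in bp of the longest CpG island it overlapped (left, 396 peaks, dashed line at equal lengths) and against the fold enrichment at its summit (right, 397 peaks, the 5 widest named). Most points lie near the line of equal lengths, with a tail to the right of peaks in longer islands, while wide peaks of about 1500 bp are found at folds from under 5 to over 20.

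The 10 widest peaks included promoters of genes with very different roles. The widest, chr15:69109629-69113955, held 389 CpGs and covered 98.9% of a 4293 bp island at ANP32A, which encodes a nuclear phosphoprotein that binds histones and inhibits protein phosphatase 2A. Its fold was 14.9, from 23 fragments at the summit over a background of 0.611. The next, chr17:79478957-79482369, spanned 3413 bp at ACTG1, the gene for cytoplasmic gamma actin, with a fold of 8.72. At HES4, a basic helix-loop-helix repressor of the Hairy and Enhancer of split family, the peak chr1:933326-936607 spanned 3282 bp with 373 CpGs and a fold of 13.8. NRP1, a co-receptor of semaphorins and of VEGF, had a peak of 3142 bp at chr10:33622993-33626134 with a fold of 23.6, higher than 99.9% of the list.

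Others of the 10 widest lay at UBTF, a factor of ribosomal RNA gene transcription, with 2969 bp and a fold of 18.6, and at ZMIZ1, a transcriptional coactivator, with 2915 bp and a fold of 17.4. TRIM8, a tripartite motif ubiquitin ligase, had 2887 bp and a fold of 11.8. ST3GAL1, a sialyltransferase, had 2812 bp and a fold of 13.6, and ANKRD18A, whose peak also held the start of FAM201A, had 2731 bp and a fold of 9.93. Of these 10, 1 covered no start site of any gene, the 3260 bp peak chr11:75919050-75922309, whose summit lay 4184 bp upstream of WNT11, a WNT ligand. It held 303 CpGs, had 46 fragments at the summit and a fold of 13.6, and reached into 2 islands, the longer of 5106 bp.

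By fold, the leading wide peaks were those of FJX1 (26.7), which encodes a secreted protein related to four-jointed, and MAP6 (25.5), a microtubule stabilizer. They were followed by NRP1 and by TENT4A (23), a non-canonical poly(A) polymerase. ABTB2, PLEKHA7 and PDE3B shared the next value, a fold of 22.4. Each of these 7 covered 1 coding start site. The summits of FJX1 and MAP6 had 42 and 40 fragments over a background of 0.611, the genome-wide rate, so their folds rested on few background reads.

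The width minimum of 1500 bp cut through a continuous range. The narrowest regions inside it measured 1500 bp at 2 places on chromosome 1, one over the start of H3-3A, which encodes histone variant H3.3, and one 48151 bp downstream of that start, and 1502 bp at DUSP4. The widest regions outside it measured 1498 bp and lay at DAPK1, a death-associated kinase, DLK2 and TBC1D12. The first group had folds of 8.31, 13.6 and 7.78 with 142, 179 and 178 CpGs, and the other 9.45, 10.4 and 15 with 150, 156 and 170 CpGs.

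Nearly every wide peak lay in a CpG island. Of 397 wide peaks, 396 overlapped an island, 99.7% (interval 98.6 to 99.99), against 79.3% of peaks under 500 bp, 98.9% of those from 500 to under 1000 bp and 99.9% of those from 1000 to under 1500 bp. The share thus did not separate the wide peaks from the class just below them. Over the median wide peak, 95.8% of the bases were in islands. Wholly inside islands lay 93 of 397, 23.4%, against 26.0% of peaks from 1000 to under 1500 bp and 39.0% of the whole list. The exception was the peak at LRRC26, chr9:140062876-140064805, with 215 CpGs and 11.1 CpGs per 100 bp. It lay in a CpG-rich segment of 9496 bp whose observed to expected CpG ratio of 0.588 fell short of the 0.6 that an island needed.

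CpG density did not set the wide peaks apart either. They had a median of 10.5 CpGs per 100 bp (quartiles 9.48 and 11.3), against 9.18 in peaks under 500 bp, 10.5 in those from 500 to under 1000 bp and 10.7 in those from 1000 to under 1500 bp. GC content had medians of 70.7% in wide and 71% in the class below, and the observed to expected CpG ratio 0.843 and 0.851. In a fixed window of 500 bp at the summit, which does not depend on the width, the medians were 8.40, 10.4, 11 and 11.2 CpGs per 100 bp from the narrowest to the widest class. The base after each CpG was also alike: 37.4% of CpGs in wide and 37.2% in narrower peaks were followed by C, and 9.50% and 9.91% by T. Among the wide peaks, the lowest density was 6.59, at GRP, the gene for gastrin-releasing peptide, and the highest 14.5, at ECPAS, an adaptor of the proteasome.

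The island under a wide peak was longer than the islands under narrower ones, as the choice by width largely requires. The median wide peak had 95.8% of its bases in islands, and 2 of 397 wide peaks overlapped 2 or more islands. The median length of the longest island overlapped was 1862.5 bp (quartiles 1571.5 and 2331), against 915, 985 and 1256 bp in the narrower classes. An island of 1500 bp or more was overlapped by 82.6% of wide peaks (interval 78.5 to 86.2), and by 31.3% of peaks from 1000 to under 1500 bp. A wide peak covered a median of 95.4% of its island, against 35.3%, 68.3% and 91.9% in the narrower classes. The island was covered whole by 114 wide peaks, 28.7%, against 27.1% of peaks from 1000 to under 1500 bp and 10.6% of the whole list. In 184 wide peaks, 46.3%, the peak was longer than its longest island, against 42.3% and 19.0% in the same groups. A window of 3000 bp at the summit held a median of 220 CpGs in wide and 178 in peaks from 1000 to under 1500 bp. As a description across the 396 wide peaks in islands, which share the library and the caller, the width had a Spearman correlation of 0.53 with island length. Over all 397 it was 0.10 with fold, -0.10 with CpG density and 0.02 with the background. These values hold only within the range of widths from 1500 bp. Over peaks of every width, the correlation was 0.25 with island length, for peaks in islands, and 0.53 with fold. It was 0.30 with CpG density and -0.20 with the background.

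**Figure D2:**
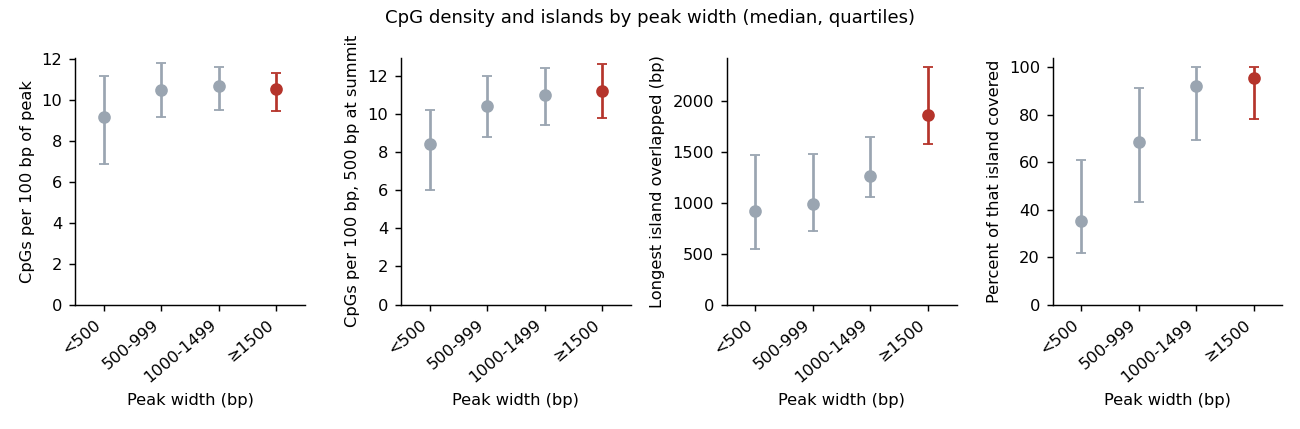
Points are medians and bars are quartiles over the peaks of 4 width classes (6315, 4618, 1337 and 397 peaks), for CpGs per 100 bp of the peak, CpGs per 100 bp in 500 bp at the summit, the length in bp of the longest island overlapped, and the percent of that island covered. The densities of the 2 widest classes lie close together, 10.7 and 10.5 over the peak, while island length steps from 1256 to 1862.5 bp.

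Long islands far outnumbered wide peaks. Of 3209 islands of 1500 bp or more, 327 overlapped a wide peak, 10.2% (interval 9.16 to 11.3), 1708 overlapped narrower peaks only and 1174 overlapped none. The study classed many CpG islands as methylated in untreated cells, and such islands can be absent from a list of new peaks. How many of the 1174 were of this kind was not examined, and the same limit holds for islands and genes without a new peak below. Beyond 1500 bp the share with a wide peak hardly moved with island length, at 10.1% of islands from 1500 to under 2000 bp, 10.6% from 2000 to under 3000 bp and 9.74% of islands of 3000 bp or more. A wide peak covered a median of 93.0% of such an island, and the narrower peaks on others a median of 41.8%. In 549 of the islands with narrower peaks only, these together spanned at least 1500 bp from the first to the last base. That span has no limit on the gaps between peaks, so it can join peaks that lie far apart. With peaks closer than 500 bp merged, 626 of the 3209 islands carried a wide region.

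CpG density and start sites did differ between long islands with and without a wide peak. Islands of 1500 bp or more had a median of 10.6 CpGs per 100 bp where they carried a wide peak, 9.92 where they carried narrower peaks and 8.70 where they carried none. A coding start site lay in 89.9% (interval 86.1 to 93.0), 83.0% (81.2 to 84.8) and 45.1% (42.3 to 48.0) of these islands. Read by density, a wide peak was on 1.40% of the islands with 7 to 8 CpGs per 100 bp, 10.7% of those with 9 to 10 and 20.6% of those with 11 to 12, and then on 10.2% of those with 12 or more, 70.3% of which carried narrower peaks. Within a density class, islands with and without a coding start site differed most clearly in the middle of the range, with 14.0% (10.7 to 17.7) against 3.33% (1.23 to 7.11) at 9 to 10 CpGs per 100 bp. The intervals of the 2 kinds of island did not overlap from 8 to 10 CpGs per 100 bp, and overlapped at lower and at higher densities.

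Most wide peaks spanned a promoter. A start site of a protein-coding gene, taken as the 5′ end of its canonical transcript, was covered by 324 of 397 wide peaks, 81.6% (interval 77.4 to 85.3), against 21.2%, 53.3% and 73.7% in the narrower classes. A wider region covers more start sites by its width alone. Per 100 kb of peak the wide peaks held 45.6 coding starts and the narrower ones 71.9, and the summit was within 1000 bp of a coding start in 74.6% of wide peaks and 79.1% of those from 1000 to under 1500 bp. Of 19229 coding genes on these chromosomes, 333 had their start in a wide peak, which is 1.73%, and 27.9% had it in a new peak of any width.

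As a rule 1 gene was covered per peak. Exactly 1 coding start lay in 315 wide peaks, 2 lay in 9 and none held 3 or more. In 6 of the 9 the starts were less than 1000 bp apart on opposite strands and pointed away from each other; chosen after the values were seen, these are GLYR1 and UBN1, HIRA and MRPL40, C17orf67 and DGKE, HNRNPDL and ENOPH1, PIGP and TTC3, and PASK and PPP1R7. The peak chr16:4896666-4898409 over GLYR1, which encodes a nucleosome-binding protein, and UBN1, a subunit of the HIRA histone chaperone complex, had the highest fold of them, 21.3 over 1744 bp. HIRA itself shared a peak of 1797 bp with MRPL40, a mitochondrial ribosomal protein, with a fold of 14.2. In the classes from 500 to under 1000 bp and from 1000 to under 1500 bp, 2.71% and 4.19% of the peaks held 2 or more coding starts, against 2.27% (1.04 to 4.26) of the wide ones.

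Non-coding starts were also found in the wide peaks. A start of a long non-coding RNA was covered by 28.5% of them (interval 24.1 to 33.2), against 22.3% (20.1 to 24.6) of peaks from 1000 to under 1500 bp and 9.14% of all narrower peaks, and in 93 wide peaks it came together with a coding start. The intervals of the 2 widest classes overlapped, and here too a wider region covers more starts by its width alone. TRIM8 with TRIM8-DT and ST3GAL1 with ST3GAL1-DT are examples among the widest. With start sites of all gene types, 347 wide peaks covered at least 1. MBD-seq carries no information on which of overlapping genes a peak concerns.

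Around the start site the wide peaks were not symmetric. Over the 315 with 1 coding start, the peak reached a median of 619 bp upstream (quartiles 414 and 893.5) and 1157 bp downstream (904.5 and 1368). It reached further downstream in 245 of 315, 77.8% (interval 72.8 to 82.3), as did the island that held the start in 78.6% of 313 (73.6 to 83.0). The island reached a median of 650 bp upstream and 1167 bp downstream. At 1000 bp downstream of the start, 65.1% of these wide peaks were still present, and at 1000 bp upstream 19.7%. In peaks from 1000 to under 1500 bp the reach was 393 and 779 bp, with 79.1% reaching further downstream.

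The summit of a wide peak was seldom at the start site itself. Its median position was 261 bp downstream, with quartiles at -153.5 and 695.5 bp, and in 27.3% of the 315 it lay within 250 bp of the start (interval 22.5 to 32.6). For peaks from 1000 to under 1500 bp that share was 40.9% (37.7 to 44.1), a range that did not overlap the first. A summit further out is possible only in a wider peak. The summit was downstream in 69.8% of the wide and 71.4% of the next narrower peaks. Within the peak, the summit fell in the outer 20% at either end in 36.8% of the wide peaks and in the middle 20% in 24.2%. In peaks from 1000 to under 1500 bp these shares were 30.7% and 21.3%, with overlapping intervals for both. Both ends together take up more of the width than the middle, so their share shows no preference for the ends. By annotation, 75 summits (18.9%) lay in 5′ untranslated exons and 75 (18.9%) in coding exons. Another 122 (30.7%) lay in introns of coding genes and 88 (22.2%) between transcripts. In peaks from 1000 to under 1500 bp these shares were 16.8%, 15.03%, 36.0% and 22.5%, with overlapping intervals for each. In the whole list they were 13.9%, 14.1%, 35.1% and 26.0%, and only the intervals for 5′ untranslated and coding exons did not overlap. The remaining summits were 3 in 3′ untranslated exons, 18 in exons of non-coding genes and 16 in introns of these.

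**Figure D3:**
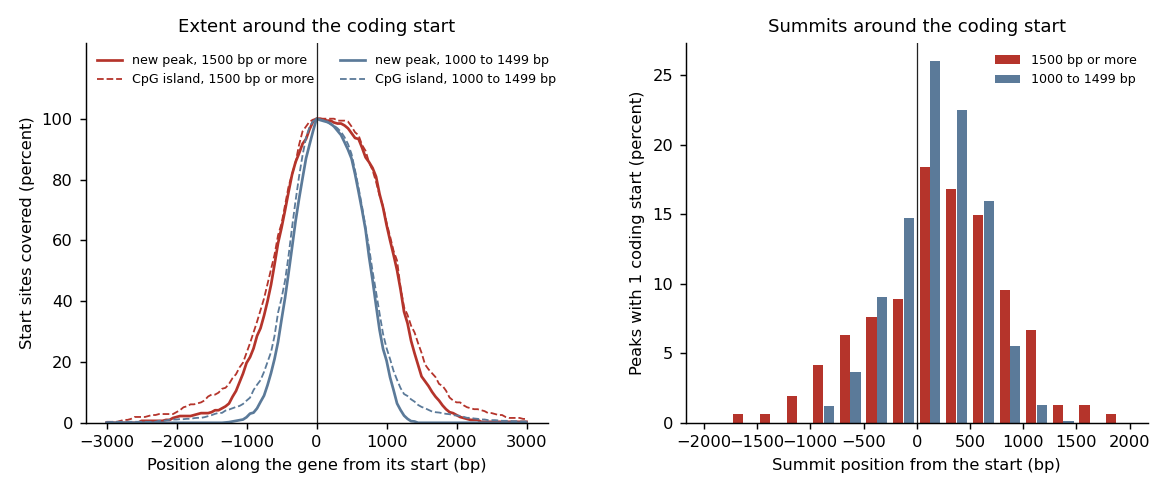
Left, the percent of coding start sites whose new peak (solid) or CpG island (dashed) covered each position, in bp along the gene with downstream positive, for peaks with 1 coding start that were 1500 bp or more (315) or 1000 to under 1500 bp (929). Right, summit positions of the same peaks in bins of 250 bp, as percent of each class. Peak and island edges run closely together, and both curves and the summits extend further downstream than upstream.

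VEGFA, which encodes a growth factor for blood vessels, is the off-target locus of the study. Its peak chr6:43738265-43739882 spanned 1618 bp and covered 71% of a 2238 bp island. The peak began downstream of the VEGFA start and held no coding start, but held that of a non-coding gene. Its summit lay 597 bp into the gene, in exon 1, with 20 fragments over a background of 0.611 and a fold of 13.0, close to the median of 12.4. Its 181 CpGs and 11.2 CpGs per 100 bp were also near the medians of the wide peaks, 185 and 10.5. By fold, CpG count and CpG density the VEGFA peak was thus close to the middle of the group. The 71% of its island that it covered was below the lower quartile of the wide peaks, 78.0%. Like VEGFA, 73 of 397 wide peaks, 18.4%, held no coding start.

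In 50 wide peaks, 12.6% (interval 9.49 to 16.3), no annotated start of any gene type was found, and 31 of these held the start of another transcript of a coding gene. The share without a start was 18.8% (16.8 to 21.0) in peaks from 1000 to under 1500 bp and 53.9% in the whole list. A narrower region misses more starts by its width alone. Of the 50, the widest after the peak near WNT11 lay within genes. At TCHH, which encodes trichohyalin of the hair follicle, the peak of 2315 bp had its summit in coding exon 3, 4062 bp from the start, and covered 43.2% of a 5218 bp island. At VGF, a neuropeptide precursor, the peak of 2202 bp had its summit in exon 2, 1314 bp from the start, with a fold of 12. At PRR7, a membrane adaptor, a peak of 2201 bp covered a 1933 bp island, with its summit in coding exon 4 and a fold of 6.19. At MYC, the transcription factor, the peak of 2200 bp had its summit in an intron, 1625 bp downstream of the start, with a fold of 13.7. In this group the median fold was 11.6 and the median density 10.2 CpGs per 100 bp, against 12.4 and 10.6 in the other wide peaks, and 32 of the 50 summits lay within 5000 bp of a coding start.

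A few wide peaks held a gene from end to end. There were 6 such coding genes in the 397 peaks, 1.51% (interval 0.557 to 3.26), and 8 in the 12270 narrower peaks, and they were picked out after the values were seen. A wider region can hold a longer gene by its width alone, and the 8 genes in narrower peaks were 57 to 522 bp long. Those in wide peaks were HES4, LRRC26, C11orf96, CCDC85B and the histone H2A genes HIST2H2AA3 and H2AC19, from 534 to 1294 bp long. The 2 histone genes are near-identical copies in an inverted duplication on chromosome 1, and both had islands of 3290 bp, so reads from one could have been placed at the other. Their peaks of 2026 and 2077 bp, with folds of 11.8 and 15.5, are therefore uncertain as separate events.

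A high background was rare. The rate was the genome-wide value in 165 wide peaks, 41.6% (interval 36.7 to 46.6), against 28.7% of narrower peaks. In peaks from 1000 to under 1500 bp the share was 34.3% (31.8 to 36.9), with an interval that overlapped that of the wide peaks. The rate was 10 or more in 5 wide peaks, 1.26%, against 2.09% of the class below and 4.88% of the whole list. The highest, 19.4 fragments, was at MIR124-3, which encodes a neuronal microRNA, where 39 fragments gave a fold of 1.96, the lowest among the wide peaks. LRRC26, an accessory subunit of potassium channels, followed with 12.5, and NPTX1, a pentraxin of neurons, with 11.4 and a fold of 3.46. At these places the background was already high, and the fold describes an addition to it.

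Gene lists chosen by symbol were compared with the 1.73% of all coding genes whose start was in a wide peak. No list share can be read as more than its count, since each list held 0 to 6 such genes. Among 203 developmental transcription factors, 6 were in a wide peak, 2.96% (interval 1.09 to 6.32), the widest being HES4, ZIC2, ATOH8 and HES6. ZIC2, a zinc finger regulator of forebrain development, had a peak of 2464 bp that covered 39.8% of a 6191 bp island. Of these factors 117 had their start in an island of 1500 bp or more, of which 6 carried a wide peak, 29 narrower peaks and 82 none. Over all genes with such islands, 270 of 2480 were in a wide peak, 10.9% (9.69 to 12.2), and the share of developmental factors was 5.13% (1.90 to 10.8).

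None of 39 HOX genes was in a wide peak, and 34 were in no new peak, so that 12.8% were in a peak of any width. None of 82 ribosomal protein genes, 63 protocadherins, 42 collagens and 56 RAB GTPases had a wide peak either, and new peaks of any width held 7.32%, 3.17%, 38.1% and 42.9% of these lists, against 27.9% of all coding genes. Such zeros allow shares of up to 9.03% for the HOX genes and 4.40% for the ribosomal proteins. Starts that were methylated before treatment can also be absent from the new peaks, which was not examined here. Of 496 zinc finger genes, 2 were in a wide peak, ZNF367 and ZNF250, 0.403% (interval 0.0489 to 1.45), a range below the 1.73% of all coding genes. Just 29 of these genes had their start in an island of 1500 bp or more, and both were among them, 6.90% (0.846 to 22.8), a range that held the 10.9% of all genes with such islands. The ZNF367 peak spanned 2279 bp with a fold of 18.9.

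Axon guidance genes and MAP kinase genes had the highest shares among the lists. Of 65 axon guidance genes, a list of semaphorins, plexins, ephrins and their receptors, netrins, slits and the receptors of these, 5 were in a wide peak, 7.69% (interval 2.54 to 17), a range that began above the share of all coding genes. The 4 widest were the netrin receptor UNC5A with 1842 bp, the ephrin receptor EPHB1 with 1726 bp, SEMA4C with 1616 bp and the ephrin EFNA5 with 1606 bp, at folds of 7.14, 10.2, 5.78 and 10.6. With long islands alone the count was 4 of 27, 14.8% (4.19 to 33.7), a range that held the 10.9% of all such genes. Of 64 genes of the MAP kinase pathway, 4 were in a wide peak, 6.25% (1.73 to 15.2). They were the upstream kinases MAP3K1, MAP3K5 and MAP3K8 and the phosphatase DUSP4, and the MAP3K8 peak had 49 fragments and a fold of 20.5. With long islands alone the count for this pathway was 3 of 13, 23.1% (5.04 to 53.8), a range that also held the 10.9%.

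Channels and transporters were present with small counts. Of 93 potassium channel genes, 4 were in a wide peak, 4.30% (interval 1.18 to 10.6), the leak channels KCNK13 and KCNK1, the accessory subunit KCNMB4 and the voltage-gated KCNC4. Of 323 solute carriers, 5 were, 1.55% (0.504 to 3.58), the widest at the zinc exporter SLC30A1, the cotransporter SLC12A2, the glutamate transporter SLC1A2 and the organic cation transporter SLC22A4. SLC1A2 had the highest fold of these, 18.6. The lists of WNT ligands and receptors (39 genes), histone methyltransferases and demethylases (64), histone genes (68) and ubiquitin peptidases and RING finger genes (127) each had 1, namely FZD8, SETD7, H2AC19 and RNF4. HIST2H2AA3, which the annotation gives under its older symbol, was not in the histone list.

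The wide peaks were spread over all 22 chromosomes, though unevenly. Chromosome 1 had 42 and chromosome 17 had 38, and chromosomes 16 and 19 had 5 and 6. Set against the islands of 1500 bp or more on each chromosome, the share that carried a wide peak was 2.04% on chromosome 19 (5 of 245, interval 0.666 to 4.70) and 2.99% on chromosome 16 (5 of 167, 0.979 to 6.85). It was 16.1% on chromosome 11 (25 of 155, 10.7 to 22.9) and 15.6% on chromosome 5 (23 of 147, 10.2 to 22.5), and the intervals of these pairs did not overlap. The median density of the long islands was 8.77 CpGs per 100 bp on chromosome 19, 9.79 on chromosome 16, 9.69 on chromosome 11 and 9.30 on chromosome 5. New peaks of any width were on 41.6% of the long islands of chromosome 19, 55.1% on chromosome 16 and 72.3% on chromosome 11. The parts of island density and of methylation before treatment in these shares were not tested.

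**Figure D4:**
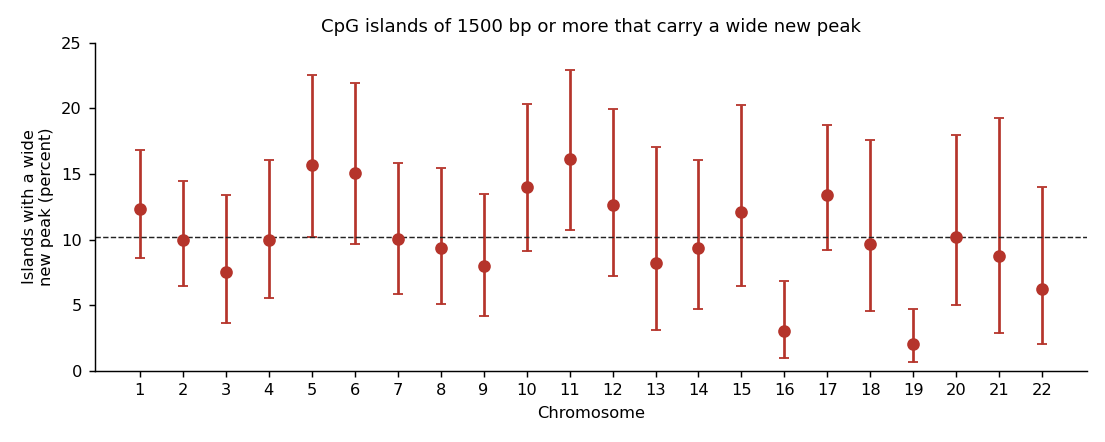
Points give the percent of CpG islands of 1500 bp or more that carried a wide new peak on each of chromosomes 1 to 22, with 95% exact binomial intervals, and the dashed line marks the 10.2% over all of them. Chromosomes 16 and 19 lie lowest, at 2.99% and 2.04%, with intervals that end below the line.

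Another new peak was seldom near a wide one, which was also the case in the class below. Within 500 bp of 47 wide peaks, 11.8% (interval 8.83 to 15.4), there was another peak, as for 11.8% (10.1 to 13.7) of peaks from 1000 to under 1500 bp and 16.4% of all narrower peaks. The gap to the nearest other peak had medians of 63915, 53882 and 28132 bp in these groups. Among the 10 widest, ACTG1, HES4, UBTF and ZMIZ1 each had another peak less than 500 bp away, at gaps of 330, 316, 353 and 218 bp. For these 4, the listed width leaves out a neighbouring peak that merging over gaps under 500 bp would have joined to it.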

How the data were processed

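MBD-seq libraries of 4 conditions, 1 each, were made from sonicated DNA of 200 to 1000 bp, so the edges of a peak are known to about a fragment length. The submitters' processing notes name hg19, FastQC, Bowtie2, deepTools and MACS2 with no version, and the peak calling settings were not given in the sources used here. The deposited list had 10 columns in the layout of MACS2 and no header. The authors' score, 10 times the −log10 q as a whole number, was left out. The fold is the authors' ratio of fragments at the summit to the background. The deposited −log10 values belong to the p-value and the q-value of each summit, whose offset within the peak fills another deposited column. Fragments k and the background rate were recovered from fold = (k + 1)/(rate + 1) and the Poisson p-value, which were met to within 0.000358 of the listed −log10 p. The total depth is unknown, and a median of 23 fragments per summit of a wide peak limits the precision. The use of MACS2 and of the untreated library as its control was inferred from the notes and values.

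Positions were compared with GRCh37 and GENCODE release 44 lifted to it. CpG islands (49214) were maximal segments with 17 per CpG and -1 per other base, over 200 bp, with at least 50% GC and a ratio over 0.6, on sequence without repeat marks. All peaks end within the chromosomes of that build. The named regions are the 10 widest, the 5 highest in fold (7 with ties), VEGFA, the 5 widest without a start, those next to the width minimum, the 3 with the highest background and up to 4 per gene list. Regions covering 3 or more starts were to be named, and there were none. Members and lists were chosen with earlier results of these data known. Shares have 95% exact binomial intervals, and no test was made, since there was 1 library and 1 list. The alternatives changed the width, the fold, merging, island criteria, overlap and start sites. On simulated data, 60 of 60 planted islands were found to within 100 bp and 500 of 500 fragment numbers recovered. The software was scipy 1.17.1, pandas 2.3.3, numba 0.67.0, matplotlib 3.10.9 and numpy 2.4.6 under Python 3.11.15.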

Additional observations from a re-analysis of the deposited data

Results flagged for a closer look

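Outside chromosomes 1 to 22, which the comparisons above did not use, the list held 8 further peaks of 1500 bp or more. Of these, 2 were on chromosome X, with widths of 1696 and 1594 bp and folds of 6.30 and 20.1. The other 6 were on the unplaced contig GL000220, with widths from 2275 to 3620 bp, folds from 2.20 to 2.51 and 408 to 472 fragments at the summit over backgrounds of 169 to 190. No wide peak on chromosomes 1 to 22 had a background above 19.4 or more than 60 fragments at its summit.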

How the results depend on the processing

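In all, 44 alternatives were computed, of which 29 stayed within the counting interval of the main value (for medians, ratios and numbers, within 1.5 times), 15 moved and 0 reversed. The number of wide peaks, 397, was 942 at 1200 bp, 90 at 2000 bp and 750 with peaks closer than 500 bp merged, where 353 of the 750 held narrower peaks only. The share in islands, 99.7%, was 100% both at 2000 bp and with peaks of at least the median fold. The share covering a coding start, 81.6%, was 76.7% at 2000 bp, 91.9% with all transcript starts, 87.4% with all gene types and 89.4% with starts within 1000 bp. The share with 2 or more starts, 2.27%, was 6.05% with all transcripts and 27.0% with all gene types. The share of long islands with a wide peak, 10.2%, was 16.8% at 1200 bp, 2.80% at 2000 bp, 9.01% at the median fold and 19.5% after merging. What moved each of these values was not tested. The ratio of CpG density to narrower peaks, 1.05, ranged from 1.02 to 1.17. The ratio of median fold was not computed for merged peaks, which have no listed fold. No paired analysis was possible because each condition had a single library, so none of these values has an error between replicates.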

Other observations

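The third widest peak on chromosomes 1 to 22, at HES4, lay close to the gene that the sgRNA was directed at. Chosen after its position was seen, its nearer edge was 12270 bp upstream of the start of ISG15 on chromosome 1. In the 50 kb on either side of that start, the list held 2 peaks, the wide one of 3282 bp with a fold of 13.8 and a neighbour of 535 bp with a fold of 7.64, both in the 4023 bp island of HES4. No listed peak covered the ISG15 start itself, whose nearby islands were 224 and 522 bp long. A list of new peaks gives no methylation level, so that the lack of a listed peak does not show a lack of methylation there. By bisulfite sequencing, the study reports efficient methylation of the ISG15 target with this editor. It also shows MBD-seq tracks at ISG15 and reports a methylation signal there for both mutants. Neither the bisulfite data nor the tracks were analysed here.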
